A study of Mus musculus with 2 samples.

Results

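Gsk3a, Gsk3b and Cdk5r2 encode the 2 glycogen synthase kinase 3 enzymes and the p39 activator of cyclin-dependent kinase 5 (Cdk5), and their mRNAs lay under 5 of the 2296 peaks in the list analysed here from the Mov10 RIP-seq of P2 mouse brain. The study reports more RIP peaks than this list holds, so every share, rank and absence of a peak given here holds for this list alone. The genes were chosen by the RIP-seq reads themselves: each has an exon, on the strand opposite to the strand column of the peak list, that shares at least 1 base with a peak that the caller listed as enriched in the IP. All values of these peaks are therefore a description, and no test is drawn from them. Gsk3a had 1 peak, Gsk3b had 2 and Cdk5r2 had 2.

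The RIP-seq set 1 library of RNA immunoprecipitated with a Mov10 antibody from whole brains of WT C57bl/6 mice at P2 against 1 library of total input RNA of the same kind of brain. The RNA came from 28 pups pooled, the IP followed an IP with an irrelevant antibody on the same lysate, and the brains for sequencing were not UV cross-linked. Neither library has a replicate, so the differences compare these libraries only. An IP:input ratio here is the share of aligned IP reads under a peak divided by the share of aligned input reads, with an exact conditional binomial interval at 95% that covers counting error only. The IP library had 1.2 times the aligned reads of the input library.

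Mov10 is an RNA helicase that works with the RNA-induced silencing complex. Gsk3 is a serine/threonine kinase with 2 closely related forms, alpha and beta, that is active in resting cells and is switched off by insulin signaling and within the Wnt pathway. Cdk5 is a kinase of postmitotic neurons that is inactive until p35 (Cdk5r1) or p39 (Cdk5r2) binds to it. Gsk3 and Cdk5 both phosphorylate microtubule-associated and other cytoskeletal proteins of growing neurites, and Cdk5 often primes a substrate for Gsk3.

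The coding peak of Gsk3b is shown first with the matching stretch of Gsk3a, because the kinases are close paralogs and their peaks lay at different places. No peak lay over the Gsk3a stretch, but the lowest peak listed on that strand had 18455 IP reads per 1000 bases against 3176 in the Gsk3b peak, so a level like that of Gsk3b lies below every peak listed there. The Gsk3b stretch is the exonic part of the peak (mm10 chr16:38220001-38220158, plus strand, 158 bases, coding exon), and the Gsk3a stretch was found by aligning the coding sequences codon by codon (chr7:25229851-25230008, minus strand, coding exon). Sequences are from the GENCODE transcripts and run 5' to 3' along the mRNA. Capitals mark the bases that differ between the genes, 60 of 158, so that identity was 62% with no gap and the longest identical run was 11 bases.
Gsk3b coding peak: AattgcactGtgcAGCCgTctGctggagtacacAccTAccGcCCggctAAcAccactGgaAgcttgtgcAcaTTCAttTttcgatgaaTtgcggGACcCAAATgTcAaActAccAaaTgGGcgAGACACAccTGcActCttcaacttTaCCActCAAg
Gsk3a counterpart: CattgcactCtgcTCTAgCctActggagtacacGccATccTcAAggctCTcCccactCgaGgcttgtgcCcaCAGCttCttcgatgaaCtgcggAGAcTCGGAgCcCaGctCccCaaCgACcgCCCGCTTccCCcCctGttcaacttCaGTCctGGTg

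Over the whole coding sequences, Gsk3a (490 codons) and Gsk3b (420 codons) were identical at 860 of 1260 aligned bases (68.3%), and the longest identical run was 17 bases. No part of the 5 peaks had a match of at least 95% over 100 bases or more in the transcript of another gene. A shorter match of the Gsk3a peak, 100% over 87 bases, lies in 9130221H12Rik, a gene that overlaps it on the other strand. The nearest match of the Gsk3b coding peak outside its own gene was Gsk3a itself, at 73.1% over 93 bases.

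The coding peak of Cdk5r2 is shown because it had the highest ratio of the 5. The stretch is the 300 bases of that peak with the most runs (chr1:74855806-74856105, plus strand, single coding exon), and capitals mark each of its 5 runs of 3 or more G. Its GC content was 65.7%.
Cdk5r2 coding peak: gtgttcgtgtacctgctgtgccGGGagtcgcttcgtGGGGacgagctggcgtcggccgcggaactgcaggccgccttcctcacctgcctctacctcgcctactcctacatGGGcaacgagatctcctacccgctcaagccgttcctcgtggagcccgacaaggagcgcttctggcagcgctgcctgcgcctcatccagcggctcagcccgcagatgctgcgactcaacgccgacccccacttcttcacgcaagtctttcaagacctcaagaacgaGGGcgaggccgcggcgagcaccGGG

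The Cdk5r2 coding sequence (369 codons) was identical to that of its paralog Cdk5r1 (307 codons) at 563 of 915 aligned bases (61.5%). The nearest match of this peak elsewhere was Cdk5r1, at 73.2% over 220 bases, and Cdk5r1 itself had no exonic peak.

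The RNA immunoprecipitated with Mov10 held the 3' UTR of Gsk3a at 20.1 times its share of the input when aligned reads were the total of each library, and at 12.3 times when uniquely aligned reads were. The latter total multiplies all ratios below by 0.613. The gene (ENSMUSG00000057177.12) lies on the minus strand of chromosome 7 (25228258 to 25237851, 11 exons in the longest coding transcript), and its peak (25228601 to 25228800, 200 bases) lies wholly in the 3' UTR, 53 bases after the stop codon and 343 bases before the end of the mRNA. It had 4450 reads in the IP library and 185 in the input library. Per 1000 bases of peak this was 22250 IP reads and 925 input reads, and the IP:input ratio was 20.1 (17.3 to 23.4). The ratio was higher than that of 66.8% of the 768 exonic peaks on chromosomes, and the IP reads per 1000 bases were higher than those of 87.6%. Among the 27 peaks on its own strand this peak ranked only 13th by IP reads per 1000 bases. The plus-strand gene 9130221H12Rik shares 114 exonic bases with this peak, and the strand of the reads assigns the peak to Gsk3a. Of 645 peaks with exons of protein-coding genes on only 1 strand, 639 lay opposite to the listed strand and 6 on it. Exons of noncoding genes were left out of this count.

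Gsk3b was recovered at lower levels and at other places in its mRNA. The gene (ENSMUSG00000022812.14) lies on the plus strand of chromosome 16 (38089001 to 38246084, 11 exons) and has a mature mRNA of 8303 bases. Its 5' UTR peak (38089801 to 38090220, 420 bases) ends 305 bases before the start codon. This peak had 957 IP reads and 167 input reads, or 2279 and 398 per 1000 bases, and a ratio of 4.78 (4.05 to 5.66). Its coding peak (38220001 to 38220210, 210 bases) covers codons 313 to 366 of 420 and 52 bases of the following intron. This peak had 667 IP reads and 99 input reads, or 3176 and 471 per 1000 bases, and a ratio of 5.62 (4.54 to 7.01). The intervals of both ratios overlap, although the peaks are 129780 bases apart in the genome and 1243 bases apart in the mRNA. Only 1 of 3 coding transcripts of Gsk3b, the longest, holds the whole 5' UTR peak, while 2 of 3 hold the exonic bases of the coding peak.

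Cdk5r2 had the most IP reads of the 3 genes. The gene (ENSMUSG00000090071.4) is a single exon of 2799 bases on the plus strand of chromosome 1 (74854934 to 74857732). Its coding peak (74855801 to 74856200, 400 bases) covers codons 235 to 368 of 369, the C-terminal part of the activator. It had 8404 IP reads and 286 input reads, or 21010 and 715 per 1000 bases, and a ratio of 24.5 (21.8 to 27.7). Its 3' UTR peak (74856401 to 74856800, 400 bases) starts 193 bases after the stop codon, 200 bases beyond the coding peak. It had 11128 IP reads and 446 input reads, or 27820 and 1115 per 1000 bases, and a ratio of 20.8 (18.9 to 22.9). The 3' UTR peak thus had more reads per length in both libraries and the lower ratio of the pair, with intervals that overlap. The IP reads per 1000 bases of the 3' UTR peak were higher than those of 94.7% of exonic peaks. Among the 21 peaks on their own strand, the 3' UTR peak ranked 5th by this measure and the coding peak 19th.

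**Figure D1:**
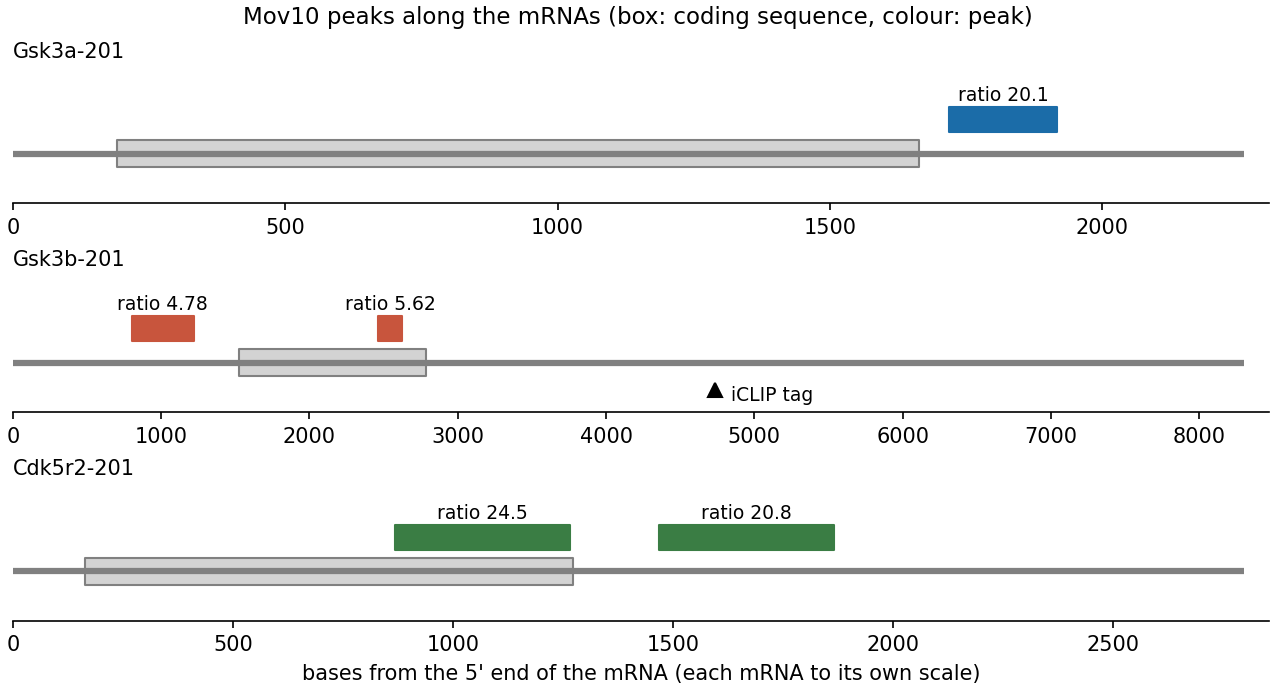
The mRNAs of Gsk3a, Gsk3b and Cdk5r2 drawn along their length in bases from the 5' end, each to its own scale, with the coding sequence as a grey box and each Mov10 peak as a coloured bar with its IP:input ratio; the triangle marks an iCLIP tag of Gsk3b. The peaks of Gsk3a (20.1) and Cdk5r2 (24.5 and 20.8) lie in the 3' UTR of Gsk3a and in the end of the coding sequence and the 3' UTR of Cdk5r2; those of Gsk3b (4.78 and 5.62) lie in the 5' UTR and the coding sequence.

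Summed over its peaks, Gsk3b had 1624 IP reads and 266 input reads over 630 bases, and a ratio of 5.09 (4.47 to 5.82). Cdk5r2 had 19532 IP reads and 732 input reads over 800 bases, and a ratio of 22.2 (20.7 to 24.0). The interval of Gsk3a overlapped that of Cdk5r2, and the interval of Gsk3b lay below both. The ratio of Gsk3a was 3.94 times that of Gsk3b, which came from 8.63 times as many IP reads per 1000 bases against 2.19 times as many input reads. The ratio of Cdk5r2 was 4.37 times that of Gsk3b, with 9.47 times the IP reads and 2.2 times the input reads per 1000 bases. Between Cdk5r2 and Gsk3a the IP reads per 1000 bases differed 1.10-fold and the input reads 0.989-fold. The difference between the kinases was larger in the IP library than in the input library. However, listed peaks had 18455 to 26260 IP reads per 1000 bases on the strand of Gsk3a. They had 2052 to 3671 on that of Gsk3b. Any 2 listed peaks from these strands would thus differ in the IP, and no conclusion about the kinases is drawn. In brain tissue taken whole, input reads do not tell fewer cells with an mRNA from less of it per cell.

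**Figure D2:**
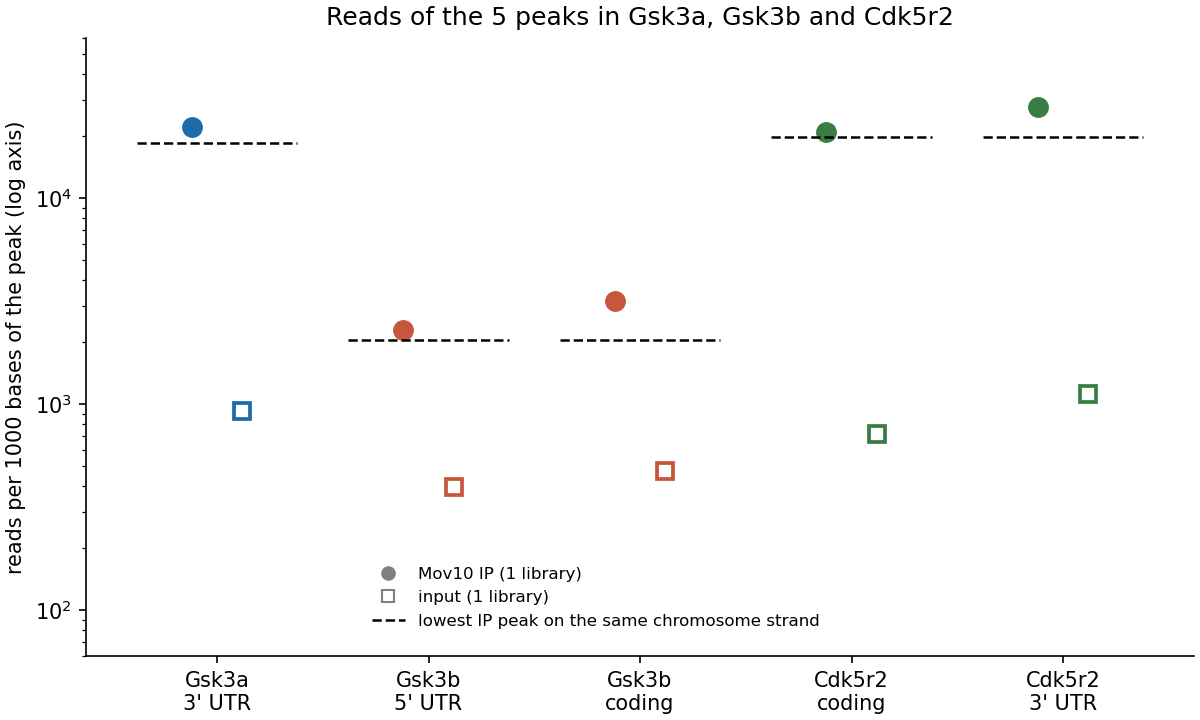
Reads per 1000 bases (log axis) of the 5 peaks in the Mov10 IP library (filled circles) and the input library (open squares), 1 library each, with a dashed line at the lowest IP level of any peak on the same chromosome strand. The IP levels of Gsk3a and Cdk5r2 lie between 21010 and 27820 and those of Gsk3b at 2279 and 3176, each above the dashed line of its own strand.

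The lowest IP level that entered the peak list differed between chromosome strands, and the members sit on strands at different levels. Peaks were called separately for each strand, and here the strand named is that of the list. The 27 peaks on the plus strand of chromosome 7, where the Gsk3a peak lies, had 18455 to 26260 IP reads per 1000 bases. The 88 peaks on the minus strand of chromosome 16, where both Gsk3b peaks lie, had 2052 to 3671. The 21 peaks on the minus strand of chromosome 1, where the Cdk5r2 peaks lie, had 19895 to 32090. The ranges on chromosomes 7 and 16 do not overlap, and the lowest level differed 8.99-fold between them. By IP reads per 1000 bases the 5' UTR and coding peaks of Gsk3b ranked 73rd and 17th of the 88 on their strand. Of 32 chromosome strands with a peak, 29 had their lowest level above that of the Gsk3b coding peak and 3 had theirs at or below the lower Gsk3b peak. The part of these strand levels in the difference between Gsk3a and Gsk3b was not tested.

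Among the peaks listed on its own strand, the ratio of Gsk3b was low. Per 1000 bases, the median there was 2638 IP reads and 196 input reads. The 5' UTR and coding peaks of Gsk3b had 2279 and 3176 IP reads, on either side of that median. Their input reads, 398 and 471, were both above it. The low ratios on this strand thus went with high input reads, and weaker recovery by Mov10 was not tested. The median ratio of the 86 exonic peaks on the minus strand of chromosome 16 was 11 (8.45 to 14.3), and by ratio the Gsk3b peaks ranked 76th and 81st of all 88 peaks there. The Gsk3a peak ranked 16th of 27 on its strand, where the median of exonic peaks was 22.5 (15.7 to 30.4). The Cdk5r2 peaks ranked 4th and 7th of 21 on theirs, where the median was 19.3 (14.3 to 24.5). Over all 768 exonic peaks the median ratio was 14.6 (13.7 to 15.4). Gsk3b thus lay below the median of its strand and of the list, Cdk5r2 above both, and Gsk3a above that of the list and below that of its strand. Only the Gsk3b peaks lay outside the interval of their strand's median. The Gsk3a peak and the 3' UTR peak of Cdk5r2 lay within theirs, and the coding peak of Cdk5r2 lay at the upper limit of its own. The place of these peaks beside the strand median is thus not resolved.

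**Figure D3:**
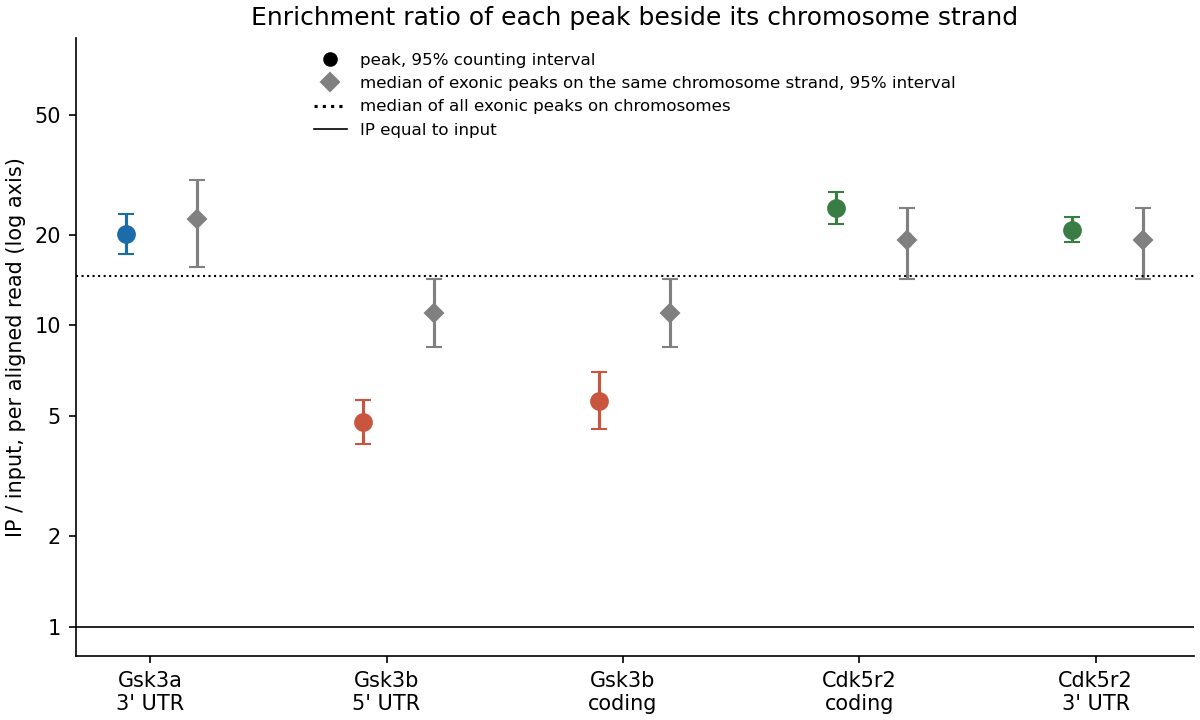
IP:input ratio per aligned read (log axis) of each peak with its 95% counting interval (circles), beside the median ratio of the exonic peaks on the same chromosome strand with the 95% interval of the median (diamonds); the dotted line is the median of all exonic peaks, 14.6, and the solid line an equal share in IP and input. The Gsk3b peaks, at 4.78 and 5.62, lie below the interval of their strand's median, 8.45 to 14.3.

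All 5 peaks had an adjusted p from the authors' caller of at most 0.05, a threshold set for this description and not by the authors, as did 90.4% of exonic peaks on chromosomes (43.4% of all peaks), so the count is no result about these genes. The adjusted p, as deposited, was 0 for the Gsk3a peak and both Cdk5r2 peaks. It was 1.02e-132 for the 5' UTR peak of Gsk3b and 2.85e-131 for its coding peak. The authors' empirical false discovery rate (eFDR) gave the opposite order. It was 0.667 for Gsk3a and 0.381 for both Cdk5r2 peaks, and 7.79e-133 and 2.37e-131 for Gsk3b, so that 1 of the 3 genes passed at 0.05. Among all exonic peaks 36.8% passed the eFDR, and among all peaks 23.4%. On the strands of Gsk3a and Cdk5r2 every peak had the same eFDR, 0.667 and 0.381, and on the strand of Gsk3b 87 of 88 passed. The counting interval of the ratio lay above 1 for all 5 peaks and for 99.3% of exonic peaks.

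**Figure D4:**
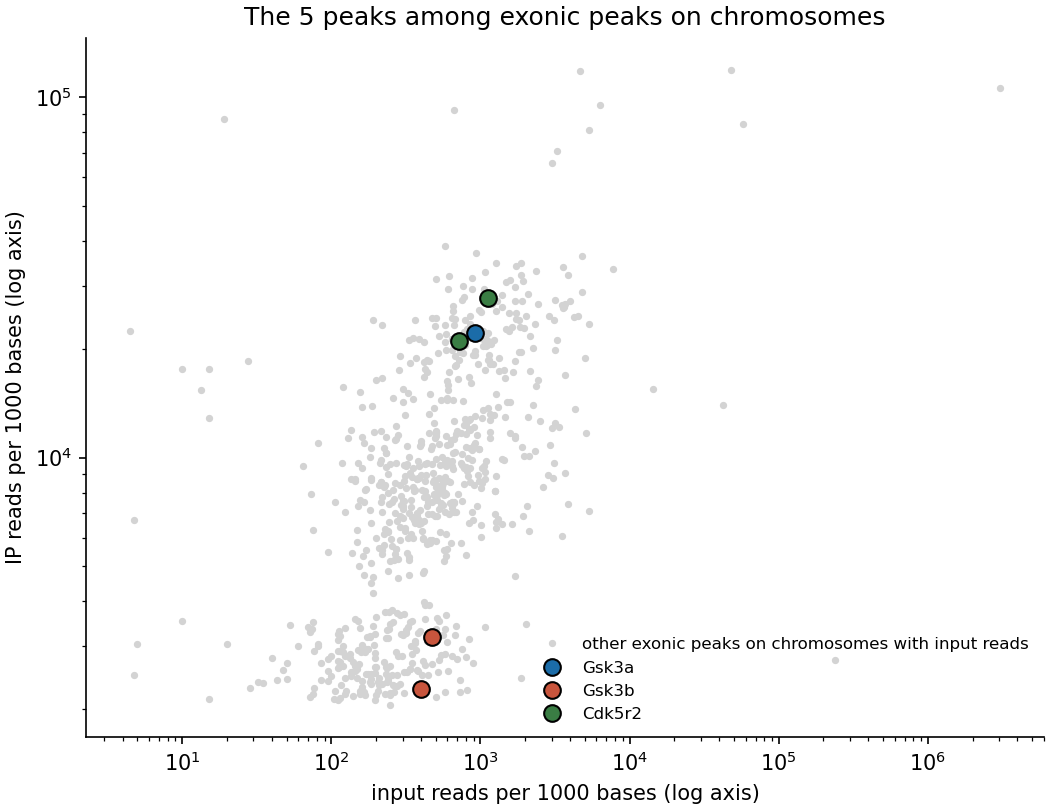
IP reads against input reads per 1000 bases (both log axes) for the 5 peaks in colour and the other exonic peaks on chromosomes in grey; 10 of the 768 with no input read are left out. Gsk3a and Cdk5r2 lie together at 715 to 1115 input reads and 21010 to 27820 IP reads, and the Gsk3b peaks lie at 398 and 471 input reads within a band of low IP level.

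The peaks fell in different parts of the mRNAs. Exonic peaks whose mRNA bases fell mostly in 5' UTRs had a median ratio of 8.49 (6.70 to 11.1, 67 peaks), those in coding sequence 14.7 (13.6 to 16.4, 339 peaks) and those in 3' UTRs 15.4 (13.8 to 17.6, 205 peaks). The 5' UTR peak of Gsk3b was higher than 16 of the 67 in 5' UTRs, and its coding peak higher than 26 of the 339 in coding sequence. The coding peak of Cdk5r2 was higher than 264 of those 339. In 3' UTRs, Gsk3a was higher than 128 and Cdk5r2 higher than 136 of 205. Within its own part of the mRNA, each Gsk3b peak thus ranked low and each Gsk3a or Cdk5r2 peak above the middle. The intervals of the Gsk3a and Cdk5r2 peaks in 3' UTRs overlap, so their order is not resolved. Each part pools chromosome strands with different lowest IP levels, and the share of the strands in these ranks was not tested. The peaks covered 8.85% of the Gsk3a mRNA, 6.96% of that of Gsk3b and 28.6% of that of Cdk5r2. The smallest exonic overlap was 158 of 210 bases, and no other peak lay within 50000 bases of any of these genes.

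Both peaks of a gene had close ratios. The higher was 1.18 times the lower in Gsk3b and 1.18 times in Cdk5r2. Among 95 protein-coding genes with 2 exonic peaks of at least 10 input reads each, the median of this fold was 1.59, and 16 had a smaller one than either gene.

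The GC content of the peaks lay above or below that of their own mRNAs. The Gsk3a peak had 56.5% GC against 59.8% for its whole mRNA, and the coding and 3' UTR peaks of Cdk5r2 had 65.8% and 59.5% against 63.9%. The 5' UTR and coding peaks of Gsk3b had 61.0% and 50% against 46.1%. The 5' UTR peak of Gsk3b was nevertheless below the median of 67.5% for peaks in 5' UTRs. The median of all exonic peaks was 53.3%.

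The letters GGG, read on the mRNA strand and counted once per unbroken run of G, were sought in the exonic bases of each peak. Of wholly exonic peaks of 200 to 210 bases, 85.1% of 309 held at least 1 run, and of those of 400 to 420 bases 95.7% of 70 did. The Gsk3a peak held 8 runs, a number reached by 7 of the 309 peaks of its length (2.27%) and by 19.1% of the windows of that length in its own mRNA. The coding peak of Cdk5r2 held 6 runs and its 3' UTR peak 7, reached by 34.3% and 22.9% of the 70 longer peaks and by 75.5% and 59.6% of the windows of the Cdk5r2 mRNA. The 5' UTR peak of Gsk3b held 3 runs, reached by 68.6% of the 70 longer peaks and by 67.4% of the windows of its mRNA. The coding peak of Gsk3b held 2 runs in its 158 exonic bases, reached by 41.1% of the windows of that length. On the opposite strand (CCC) the Gsk3a peak held 5 runs, the Gsk3b peaks 10 and 2, and the Cdk5r2 peaks 4 and 17, in the same order, so GGG was the more frequent in the Gsk3a peak and the coding peak of Cdk5r2 only. None of the 5 peaks held 4 runs of G with at most 7 bases between them, the usual pattern sought for a G-quadruplex, which 13 of the 768 exonic peaks held (1.69%).

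An iCLIP tag of Gsk3b, from a separate cross-linking experiment of the study on P0 and P1 brains, lies elsewhere in this mRNA. The study's supplement gives the sequence of the tag, which is printed whole and in capitals. The 27 bases occur in Gsk3b and in the transcripts of 0 other genes, at chr16:38242502-38242528 on the plus strand, in the 3' UTR 1932 bases after the stop codon.
Gsk3b iCLIP tag: ACTCTCCAAGAGAGTTGTATTGTCTGC

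No RIP-seq peak lay over the tag, which is 2099 bases of mRNA beyond the coding peak in a 3' UTR of 5515 bases. The number of iCLIP reads was not analysed here.

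The genes nearest to each member in IP and input reads per 1000 bases, taken as the distance on the log2 scale over these 2 libraries, were of several kinds. For the Gsk3a peak they were R3hdm1 (distance 0.043, ratio 19.3), the pseudogene Gm5518 (0.115, ratio 22) and Gnao1, a G protein subunit of neurons (0.146, ratio 23.1). For the 5' UTR peak of Gsk3b they were Cxadr, a cell adhesion receptor (0.061, ratio 4.64), Gars, the glycyl-tRNA synthetase (0.066, ratio 5.01), and Lrrn1 (0.133, ratio 5.09). For the 3' UTR peak of Cdk5r2 they were the pseudogene Gm37108 (0.106, ratio 23.1), Lamp1, a lysosomal membrane protein (0.116, ratio 18.6), and another peak of Gnao1 (0.197, ratio 21). Gm37108 has 13 near-identical copies among other transcripts, so its reads are uncertain. Of 32 chromosome strands with a peak, only 3 had their lowest IP level at or below the lower Gsk3b peak. The nearest genes thus depend on the strand levels too, and they are no evidence that the genes are alike.

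None of the 14 other genes of the Cdk5 complex and its partners had an exonic peak, although 9 lie opposite a chromosome strand with peaks. Cdk5 itself had none, on a strand where the 19 peaks had at least 9672 IP reads per 1000 bases, and the activator Cdk5r1 had none where the 14 peaks had at least 10960. Of 23 kinases and phosphatases that act on Gsk3, 17 lie opposite a strand with peaks and none had an exonic peak. Akt1, the kinase that inhibits Gsk3 downstream of insulin, had none on a strand whose 11 peaks had at least 22990 IP reads per 1000 bases. These levels are the lowest among the listed peaks and not a known cutoff of the caller. An mRNA below them may go unlisted, so no peak does not show that Mov10 is absent from an mRNA. Of all 22028 protein-coding genes 1.82% had an exonic peak past the adjusted p, or 2.42% of the 16604 that lie opposite a strand with a peak, so a count of 0 in lists of this size is near that background and is no result about these genes.

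In the destruction complex of the Wnt pathway, Gsk3 phosphorylates beta-catenin. Among 26 other genes of this pathway and complex, 3 had an exonic peak and all 3 passed the adjusted p. This was 11.5%, against 1.82% of all protein-coding genes and 2.42% of those opposite a strand with a peak. Of the 26 genes, 19 lie opposite such a strand. The list was drawn with earlier results known, so the share is no evidence of enrichment. Of the 3, 1 passed the eFDR and 0 reached 19895 IP reads per 1000 bases, the lowest level on the strand of Cdk5r2. Apc, the scaffold of the complex, had 17805 IP reads and 1098 input reads over 7 peaks and a ratio of 13.5 (12.7 to 14.4). Csnk1a1, the casein kinase that primes beta-catenin, had a ratio of 7.15 (6.20 to 8.28). Dvl3, a Dishevelled protein, had a ratio of 7.0 (6.07 to 8.10) and lies on the same strand of chromosome 16 as Gsk3b, whose ratio of 5.09 was lower. The scaffold Axin1 had no exonic peak, and Ctnnb1, which encodes beta-catenin, lies opposite a strand with no peak in the list.

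Some substrates of Gsk3 and Cdk5 in neurons had peaks in the list. Of 57 such genes, 14 had an exonic peak and 11 passed the adjusted p (19.3%, against 1.82% of all protein-coding genes). Only 4 passed the eFDR and 2 reached 19895 IP reads per 1000 bases. These genes were listed with earlier results known, so the share is no evidence of enrichment. The 11 had a median ratio of 14.1, against 14.7 (13.6 to 15.9) for the 401 protein-coding genes that passed. The microtubule-associated protein Map2 had 17852 IP reads and 1056 input reads and a ratio of 14.1 (13.2 to 15.0). The collapsin response mediators differed widely: Crmp1 had a ratio of 12.8 (12 to 13.8), Dpysl3 of 5.56 (4.97 to 6.23) and Dpysl2 of 2.29 (2.03 to 2.60). The neurofilament gene Nefl had a ratio of 20.4 (18.6 to 22.4), and 1 of its peaks shares 420 identical bases with an annotated Nefm transcript. Syn1, a synaptic vesicle protein, had a ratio of 13.7 (12.5 to 15.1), and Myc, a transcription factor that Gsk3 marks for degradation, of 46 (34.1 to 63.4). Mapt, which encodes tau, had 4 peaks with a ratio of 12.9 (11.9 to 14.0) that did not pass, with an adjusted p of 1, on a strand of chromosome 11 where none of the 14 peaks passed. The other genes with peaks that did not pass, named after their values were seen, were App (9.27) and Dlg4 (13.2). Map1b lies opposite a strand with no peak in the list.

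Over the 4 lists together, 14 of 120 genes other than the members passed the adjusted p (11.7%, against 1.82% of all protein-coding genes). Their median ratio was 13.6, with a range of 2.29 to 48.3. Of these 14, 4 had a higher ratio than Gsk3a and 2 a lower ratio than Gsk3b. The lists were drawn with earlier results of these data known, so their shares are not independent evidence.

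**Figure D5:**
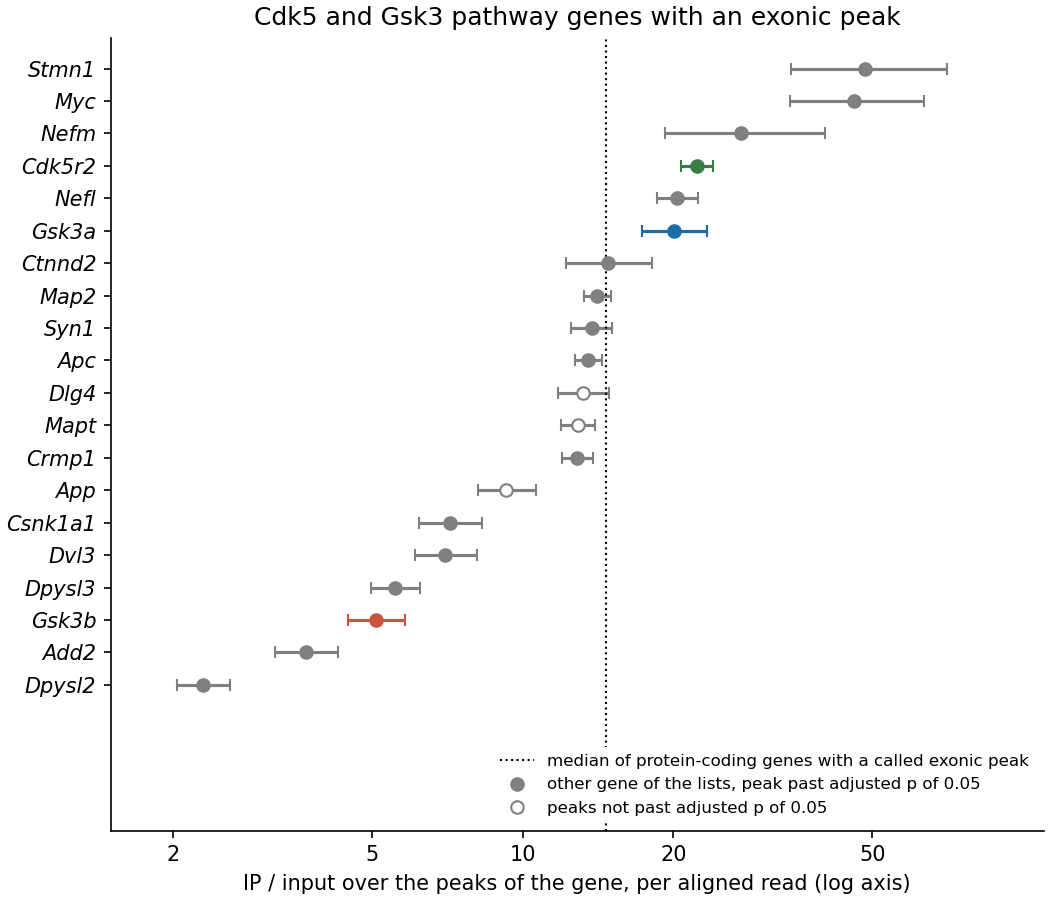
IP:input ratio per aligned read (log axis) with its 95% counting interval for each gene of the Cdk5 and Gsk3 lists with an exonic peak, members in colour; filled grey points passed the adjusted p of 0.05, open points did not, and the dotted line is the median of all protein-coding genes that passed, 14.7. Cdk5r2 (22.2) and Gsk3a (20.1) lie above the line and Gsk3b (5.09) below it.

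Marker genes of cell types were looked up in the list. The list holds only regions called as enriched in the IP over input, so it cannot check the tissue label. Of all protein-coding genes 1.82% had an exonic peak past the adjusted p, or 2.42% of those opposite a strand with a peak. Only 4 of 6 microglial and 3 of 5 blood markers lie opposite such a strand. Of 10 neuronal markers 5 had an exonic peak past the adjusted p (Tubb3, Snap25, Map2, Syt1 and Nefm), of 7 astrocyte and radial glia markers 2, of 6 oligodendrocyte markers 1, of 6 endothelial and pericyte markers 1, and of 6 microglial and 5 blood markers 0. Levels of genes outside peaks are not in the list, so an absent marker gives no level.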

How the data were processed

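RNA of Mov10 IP and input was sequenced from P2 brain, 1 library each. The authors used bcl2fastq 2.17.1.14 for base calling, aligned reads with TopHat2 2.1.1 to unmasked mm10, allowing several alignments per read, and called peaks with RIPSeeker for each strand, assigning reads with several hits to 1 place. The deposited peak list is a GFF3 table whose attribute column holds, per peak, read counts of IP and input (not scaled), the caller's p-value, adjusted p and eFDR, all used as deposited. The IP with the irrelevant antibody was not analysed here.

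Counts were divided by the aligned reads of each library, as the study's methods give them, and expressed as ratios with exact conditional binomial intervals at 95%. Gene exons and sequences came from GENCODE M21 (mm10). RefSeq exons were not used here. RefSeq gene spans matched for Gsk3a and Gsk3b, while that of Cdk5r2 starts at 74855029 in place of 74854934. Copies were sought with BLAST+ 2.17.0 (at least 95% identity over 100 bases), and coding sequences were aligned by codon with biopython 1.88. Other work used Python 3.11.15, numpy 2.4.6, scipy 1.17.1 and matplotlib 3.10.9. The ratio and interval code was tested on simulated data.

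The members and gene lists were chosen with earlier results of these data known. Named genes were the members, list genes with a passing exonic peak (up to 6 a list by IP reads), 8 fixed pathway genes, and the 3 nearest genes of each member. Alternatives changed the library totals, pseudocount, threshold, overlap and strand.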

Additional observations from a re-analysis of the deposited data

How the results depend on the processing

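Dividing by uniquely aligned reads multiplied every ratio by 0.613 and gave 12.3 for Gsk3a, 3.12 for Gsk3b and 13.6 for Cdk5r2. By peak it gave 12.3 for Gsk3a, 2.93 and 3.44 for the 5' UTR and coding peaks of Gsk3b, and 15.0 and 12.7 for the coding and 3' UTR peaks of Cdk5r2. Dividing by all sequenced reads gave 16.4, 4.17 and 18.2 for the genes. These totals scale all peaks alike, so the order of the genes is the same by construction. When calls were taken from the eFDR, 1 member passed (Gsk3b) in place of 3, and 5 of the pathway genes in place of 14. With a common lowest level of 19895 IP reads per 1000 bases on every strand, an alternative added after the data had been seen, 2 members passed (Gsk3b was lost) and 2 pathway genes did. An adjusted p of 0.01, a pseudocount of 1, an overlap of 50% of the peak, the peak with the most IP reads alone and exons on either strand, each run for the results it bears on, moved ratios by less than their counting intervals and no count. No paired analysis was possible because each group has 1 library. The depth limits the precision most for the Gsk3b coding peak, with 99 input reads, and mRNAs below the lowest level listed on their strand cannot be described.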
